A study of Homo sapiens with 3 samples.

Results

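The genes described here are PBRM1 and 9 further subunits of the SWI/SNF chromatin remodelers, ARID1A, ARID1B, ARID2, SMARCA4, SMARCA2, SMARCB1, SMARCC1, SMARCE1 and BRD7. They make up 10 of the 17448 protein-coding genes in the deposited table. They were selected by name, around PBRM1, which was picked because it was lower in the siERRG3 library and not in the siERRG2 library. These same values are therefore given for PBRM1 as a description, and the members as a list lend no support to their own direction. All 10 members had at least 10 counts in at least 1 library and so passed the filter on low counts.

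SWI/SNF complexes use the energy of ATP hydrolysis to slide or evict nucleosomes, and so open DNA to transcription factors. Each complex holds 1 catalytic ATPase, SMARCA4 or SMARCA2, on a common core, and the other subunits define its form. Canonical BAF carries ARID1A or ARID1B, PBAF carries ARID2, PBRM1 and BRD7, and a smaller non-canonical form, ncBAF, carries BRD9. These genes are among the chromatin regulators most often mutated in human cancer, lung cancer included, and the complexes can serve as coactivators of nuclear receptors.

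H128 is an established human small cell lung cancer (SCLC) line, grown here in RPMI1640 medium with serum. Its RNA was sequenced 48 h after transfection with a control siRNA (siCont) or with an siRNA against ESRRG, the gene of the orphan nuclear receptor ERRγ, in libraries labelled siERRG2 and siERRG3. The study knocked ESRRG down to find the transcripts that depend on ERRγ. There was 1 library per condition, so no difference below has a replicate check and no p-value is given. The 95% exact binomial (Clopper-Pearson) intervals of scaled count ratios cover counting error only, and compare libraries rather than conditions. Both ratios to siCont share the same control library.

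Rounded estimated counts totalled 19861937, 19900580 and 20016780 for siCont, siERRG2 and siERRG3, and values given below without library names keep this order. ESRRG itself had 806, 211 and 230 counts in this order, a log2 fold change of -1.94 in siERRG2 and -1.82 in siERRG3. Of the neuroendocrine markers that define this lineage, 9 were analysed, and their summed counts were 40572, 34495 and 34540 in the same order. Summed counts of 4 epithelial markers were between 192 and 301 and those of 4 leukocyte markers between 138 and 181. The 4 fibroblast markers summed to between 2315 and 3214, mostly COL1A2. The 4 endothelial markers summed to 1483 with siCont, 1645 with siERRG2 and 611 with siERRG3, nearly all of it CDH5, while VWF and KDR had at most 1 count in any library. CDH5 was thus lowest in siERRG3, as PBRM1 was. The neuroendocrine markers did not move together: NEUROD1 had 7395, 7020 and 4073 counts and SYP 5279, 5169 and 3779, both lower in siERRG3 and not in siERRG2, as was CHGA with 3282, 3750 and 2751. INSM1 was lowest in siERRG2, with 10359, 5279 and 9168 counts. SCG2 was highest in siERRG2, with 234, 558 and 257 counts, and DLL3 was above siCont in both, with 389, 486 and 578. Of the 9 markers, 2 were at least 1.2-fold lower and 2 higher in siERRG2, beside 19.2% and 16.4% of all genes. In siERRG3, 3 were lower and 1 higher, beside 25.1% and 23.2%. The part of these genes in the results below was not tested. In bulk RNA, fewer cells of a type and less RNA per cell cannot be told apart.

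In siERRG3 PBRM1, ARID1A, ARID1B, SMARCA2 and SMARCE1 were all at least 1.2-fold below siCont, the threshold used in the study and here for calling a gene. In siERRG2 SMARCE1 was the only member past it. PBRM1 was at 0.531 of its siCont count in siERRG3, and ARID2, SMARCA4, SMARCB1, SMARCC1 and BRD7 stayed inside 1.2-fold in both libraries. No member was called higher in any comparison.

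PBRM1 encodes BAF180, a bromodomain subunit through which PBAF binds acetylated histones. The gene (ID 55193) lies on chromosome 3 at 52545367–52685913 by RefSeq in GRCh38.p14. It had 2730, 2854 and 1474 counts in the siCont, siERRG2 and siERRG3 libraries. Per transcript length its level was 17.15, 18.01 and 9.19 FPKM in the same order. The siCont and siERRG2 libraries were thus close together, and siERRG3 stood well below both. The scaled count ratio to siCont was 1.03 for siERRG2 (95% interval 0.980 to 1.09) and 0.531 for siERRG3 (0.498 to 0.566). Set directly against siERRG2, the siERRG3 library was at 0.514 (0.482 to 0.547), a difference that the choice of PBRM1 also fixes. On the log2 scale these differences were 0.048, -0.91 and -0.96. Of 7254 genes averaging 500 counts or more, 175 were as low in siERRG3 as PBRM1 or lower, PBRM1 included, which is 2.41%.

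Sequence from the 250 bases upstream of a transcription start is given for members that illustrate both outcomes in siERRG3. It is from RefSeq promoter windows of GRCh38.p14, the build of the coordinates in the deposited table. Of the 10 members, 8 matched a window, with 14 windows between them. ARID2 and SMARCC1 did not match. Motifs were searched on both strands in the 250 bases before each start, and capitals mark the matches in the stretches shown here. None of the motifs contains another. The first line is the E-box (CACGTG, bound by MYC and related factors) upstream of PBRM1 on the minus strand, at chr3:52686026-52686055, inside the RefSeq extent of the divergent gene GNL3. The next pair are upstream of SMARCA2 (plus strand, chr9:2015097-2015185) and ARID1A (plus strand, chr1:26695765-26696014), both called lower in siERRG3, and the last is upstream of BRD7 (minus strand, chr16:50368989-50369238), whose count was level there. In these the capitals are GC boxes (GGGCGG), the site of SP1-type factors, or the reverse complement. The PBRM1 and SMARCA2 lines are cuts of 30 and 89 bases, while the ARID1A and BRD7 lines are whole windows of 250 bases. The whole SMARCA2 window held 2 GC boxes and 1 ETS-type site (CCGGAAG).
PBRM1: ctccgctggcgcCACGTGtgaactgaagcc
SMARCA2: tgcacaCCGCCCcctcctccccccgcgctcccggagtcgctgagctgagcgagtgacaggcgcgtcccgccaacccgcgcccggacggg
ARID1A: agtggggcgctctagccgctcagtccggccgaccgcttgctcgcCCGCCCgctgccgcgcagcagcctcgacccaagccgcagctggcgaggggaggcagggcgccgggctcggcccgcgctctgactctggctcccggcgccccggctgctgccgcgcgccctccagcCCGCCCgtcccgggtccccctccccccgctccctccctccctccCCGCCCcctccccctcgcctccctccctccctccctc
BRD7: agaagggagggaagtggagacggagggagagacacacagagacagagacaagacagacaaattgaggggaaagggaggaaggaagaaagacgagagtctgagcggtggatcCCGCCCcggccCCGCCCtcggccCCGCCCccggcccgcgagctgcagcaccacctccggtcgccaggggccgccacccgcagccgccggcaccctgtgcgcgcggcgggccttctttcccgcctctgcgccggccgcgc

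The half-site bound by ERR receptors, AAGGTCA, was in 0 of the 14 member windows, against 3.44% of all 34943 windows. The absence says only that these letters are not in these windows. The E-box was in 1 member window, upstream of PBRM1, and in 6.32% of all windows. Another PBRM1 window, at chr3:52685600-52685849, held 6 GC boxes and no E-box. GC boxes were in 7 of 14 member windows and in 42.5% of all windows, and members with and without a lower count in siERRG3 both had them. The ETS-type site CCGGAAG was in 1 member window (SMARCA2) and in 8.48% of all, and the cAMP response element TGACGTCA was in 0 and in 1.63%. A match is a description of the letters and not a bound site.

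ARID2 and BRD7 build PBAF together with PBRM1. ARID2, the DNA-binding scaffold subunit of PBAF (chromosome 12, 45729706–45908037), had 1024 counts with siCont, 1209 with siERRG2 and 971 with siERRG3. Relative to siCont, siERRG2 was at 1.17 (95% interval 1.07 to 1.27) and siERRG3 at 0.932 (0.853 to 1.02). The siERRG2 library was thus the highest, and siERRG3 overlapped siCont within counting error. Between the ESRRG siRNA libraries ARID2 passed the threshold, at 0.799 in siERRG3 (0.733 to 0.870), or -0.32 on the log2 scale.

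BRD7, a bromodomain protein of PBAF (chromosome 16, 50315957–50368988), had 2241, 1967 and 2299 counts in the siCont, siERRG2 and siERRG3 libraries. Here siERRG2 was the low library, with a ratio of 0.868 (0.816 to 0.922), and siERRG3 was level with siCont at 1.01 (0.951 to 1.07). PHF10, the remaining subunit listed as specific to PBAF, had 221, 254 and 254 counts. Of these 4 PBAF genes, only PBRM1, which was chosen for being low there, was called in siERRG3. Among all genes 25.1% were called lower and 23.2% higher in that library. The FPKM of PBRM1 over that of ARID2 was 2.61, 2.30 and 1.52 in the siCont, siERRG2 and siERRG3 libraries.

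**Figure D1:**
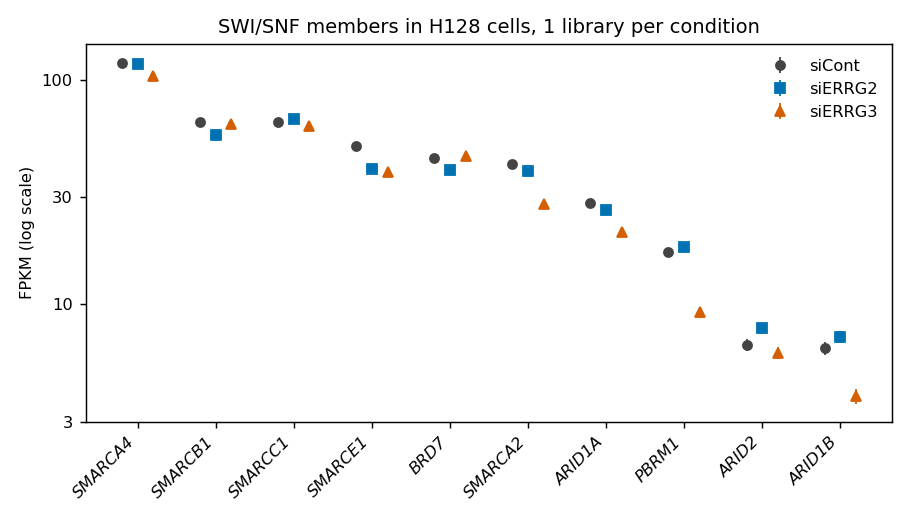
Level of each member in FPKM (log scale) in the siCont, siERRG2 and siERRG3 libraries, 1 library each, ordered by the level in siCont; vertical lines, mostly hidden by the symbols, are 95% intervals for counting error. SMARCA4 is highest in every library and ARID2 and ARID1B are the lowest pair, and the siERRG3 triangle sits apart below the other symbols for SMARCA2, ARID1A, PBRM1 and ARID1B.

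ARID1A and ARID1B are alternative subunits of canonical BAF, each carrying an AT-rich DNA-binding domain. ARID1A (chromosome 1, 26696015–26782104) had 4869 counts with siCont, 4571 with siERRG2 and 3658 with siERRG3. The siERRG3 library was the low one, with a ratio to siCont of 0.739 (0.708 to 0.771), against 0.928 (0.891 to 0.967) in siERRG2. ARID1B (chromosome 6, 156776026–157210779) had 933, 1037 and 639 counts in the siCont, siERRG2 and siERRG3 libraries. It was again lowest in siERRG3, at 0.673 (0.608 to 0.746), and in siERRG2 its interval lay just above 1, at 1.10 (1.005 to 1.202). Directly between the ESRRG siRNA libraries, siERRG3 was at 0.796 for ARID1A (0.762 to 0.832) and at 0.613 for ARID1B (0.555 to 0.677).

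In FPKM, ARID1A exceeded ARID1B 4.42-fold with siCont, 3.69-fold with siERRG2 and 5.41-fold with siERRG3. The sum of ARID1A, ARID1B and ARID2, the alternative ARID subunits of BAF and PBAF, was 41.1 FPKM with siCont, 41.4 with siERRG2 and 30.9 with siERRG3. ARID2 made up 16.0%, 18.9% and 19.6% of this sum. The summed level was therefore nearly the same in siCont and siERRG2 and lower in siERRG3, with a somewhat larger share for the PBAF subunit in both ESRRG siRNA libraries than in siCont.

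SMARCA4 (BRG1) and SMARCA2 (BRM) are the alternative ATPases. SMARCA4 (chromosome 19, 10961030–11062273) had 12909 counts with siCont, 12820 with siERRG2 and 11431 with siERRG3. Relative to siCont, siERRG2 was at 0.982 (0.958 to 1.01) and siERRG3 at 0.871 (0.849 to 0.893), so the siERRG3 difference exceeded counting error but stayed inside 1.2-fold. SMARCA2 (chromosome 9, 2015347–2193620) had 4082, 3999 and 2516 counts. Its siERRG3 ratio was 0.606 (0.576 to 0.637), while siERRG2 overlapped siCont at 0.968 (0.927 to 1.01). By counts SMARCA2 was thus the member closest to PBRM1 in siERRG3, and like PBRM1 it did not differ from siCont beyond counting error in siERRG2. By FPKM ARID1B was closer, with a siERRG3 ratio to siCont of 0.609, against 0.667 for SMARCA2 and 0.536 for PBRM1.

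In FPKM, SMARCA4 exceeded SMARCA2 2.83-fold with siCont, 2.99-fold with siERRG2 and 3.72-fold with siERRG3. SMARCA2 made up 26.1%, 25.0% and 21.2% of the sum of both ATPases, and the sum was 161, 157 and 133 FPKM. SMARCA4 was the more abundant ATPase transcript in all 3 libraries.

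SMARCB1, SMARCC1 and SMARCE1 belong to the part of the complex shared by BAF and PBAF. SMARCE1 (BAF57, chromosome 17, 40624962–40647818) had 2450, 1935 and 1901 counts in the siCont, siERRG2 and siERRG3 libraries. Both ESRRG siRNA libraries were low by a like amount, with ratios of 0.781 (0.735 to 0.829) and 0.763 (0.718 to 0.810). Their direct ratio was 0.977 (0.917 to 1.04), so SMARCE1 was the single member that passed the threshold in both. Both ratios rest on the same siCont library. In siERRG3 SMARCE1, at -0.39 on the log2 scale, was the called member nearest the threshold, and SMARCA4, at -0.20, the uncalled member nearest it.

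SMARCC1 (BAF155, a core scaffold, chromosome 3, 47585269–47781893) was the steadiest of these core members, with 7240, 7503 and 7054 counts. Its ratios to siCont were 1.02 (0.992 to 1.06) and 0.958 (0.927 to 0.990). SMARCB1 (the core subunit lost in rhabdoid tumours, chromosome 22, 23786966–23838009) had 2226, 1955 and 2191 counts. Its siERRG2 count was the low one, at 0.868 of siCont (0.817 to 0.923), as for BRD7, and siERRG3 was at 0.968 (0.912 to 1.03). PBRM1 and SMARCC1 lie on the same arm of chromosome 3, and differed in siERRG3.

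In siERRG2, 1 of 10 members was called lower and 0 higher, where 19.2% of the 14031 genes that passed the filter were called lower and 16.4% higher. In siERRG3, 5 of 10 were called lower and 0 higher, where 25.1% of all genes were lower and 23.2% higher. Between siERRG3 and siERRG2, 5 of 10 were lower (PBRM1, ARID1B, SMARCA2, ARID1A and ARID2) and 0 higher, beside 25.3% and 26.4% of all genes. The median log2 fold change of the members was -0.036 in siERRG2, -0.29 in siERRG3 and -0.25 between them, whereas the median of all genes was -0.00038, -0.0033 and 0.014. With 10 genes gathered around 1 chosen for being low in siERRG3, nothing is read from these shares.

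Another 21 genes were listed by membership of the complexes, and they give the broader view. In siERRG3, 4 of 21 were called lower and 4 higher, with a median log2 fold change of 0.045. In siERRG2, 2 were lower and 1 higher, with a median of -0.016, and between siERRG3 and siERRG2 3 were lower and 4 higher. These shares were below those of all genes. Over all 31 subunits, the members included, 9 were lower and 4 higher in siERRG3, beside 25.1% lower and 23.2% higher among all genes. Of the 31, 18 were below siCont, and the median was -0.062. This total holds the members gathered around PBRM1, so nothing is read from it.

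**Figure D2:**
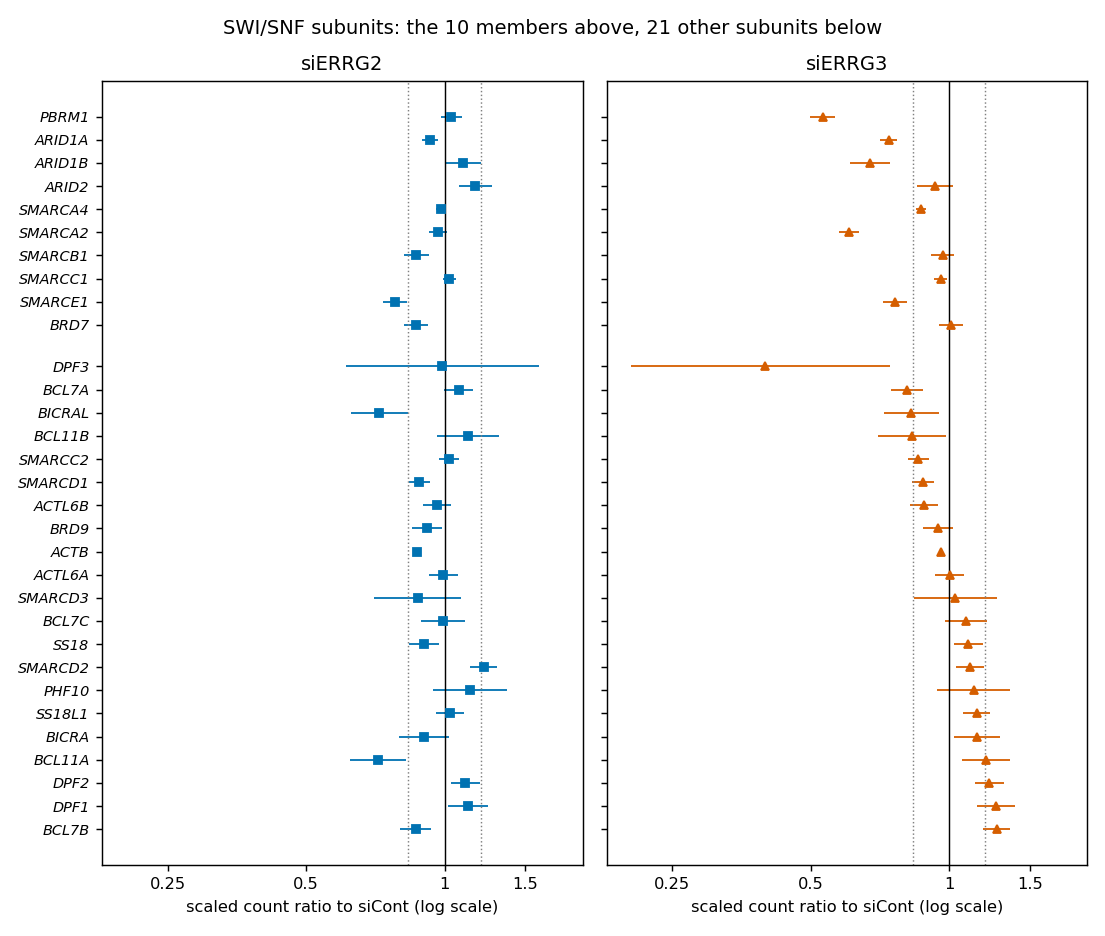
Scaled count ratio to siCont (log scale) of the 10 members (above) and 21 other SWI/SNF subunits (below) in siERRG2 (left) and siERRG3 (right), 1 library each; horizontal lines are 95% exact binomial intervals for counting error and dotted lines mark a 1.2-fold difference. In siERRG3 5 members lie left of the dotted line and none to the right, while the other subunits, sorted by this ratio, spread to both sides.

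Among the partners of ARID1A and ARID1B in canonical BAF, the DPF proteins, which read histone tails through PHD fingers, went different ways in siERRG3. DPF1, the neuronal form, had 754 counts with siCont, 857 with siERRG2 and 969 with siERRG3, and its siERRG3 ratio was 1.26 (1.15 to 1.39). DPF2, the widely expressed form, had 1388, 1557 and 1728, with a siERRG3 ratio of 1.22 (1.14 to 1.31). DPF3 had only 37, 37 and 15 counts, with a ratio of 0.399 and a wide interval of 0.203 to 0.744. For DPF1 and DPF2 siERRG2 lay between siCont and siERRG3, and DPF1 was at 0.595, 0.605 and 0.618 of the FPKM of DPF2.

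The BCL7 proteins and SS18 bind near the ATPase. BCL7A was lower in siERRG3, with 1407, 1529 and 1159 counts and a ratio of 0.810 (0.749 to 0.876). BCL7B was higher, with 1454, 1273 and 1876 counts and a ratio of 1.27 (1.18 to 1.36). BCL7B in siERRG3 was at 1.47 (1.36 to 1.57) of siERRG2, and SS18 passed 1.2-fold only in that direct comparison, at 1.22 (1.13 to 1.31). Related subunits of the same type were thus on opposite sides of siCont in the same library.

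BICRAL, one of the alternative GLTSCR subunits of ncBAF, had 456, 333 and 384 counts in the siCont, siERRG2 and siERRG3 libraries, and was called lower in both, at 0.722 (0.625 to 0.833) and 0.828 (0.721 to 0.951). BRD9, the bromodomain subunit that marks ncBAF, was inside 1.2-fold in both, with 1418, 1316 and 1366 counts. BICRA, the alternative to BICRAL, was also inside 1.2-fold of siCont in both, with 538, 491 and 629 counts. Its ratio to siCont was 1.15 in siERRG3 (1.02 to 1.29). Directly between the ESRRG siRNA libraries BICRA was called higher in siERRG3, at 1.27 (1.13 to 1.44). SMARCD2, of the core, had 1556, 1914 and 1757 counts and was called higher in siERRG2 only, at 1.22 (1.14 to 1.30), with a ratio interval of 1.04 to 1.19 in siERRG3. Whether these values differ between the siRNAs beyond replicate spread was not tested.

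BCL11A and BCL11B are zinc finger transcription factors that associate with BAF. BCL11A had 484 counts with siCont, 351 with siERRG2 and 592 with siERRG3, below siCont in the former, at 0.717 (0.623 to 0.824), and just past the threshold above it in the latter, at 1.203 (1.07 to 1.36). BCL11B had 309, 351 and 261 counts and was called lower in siERRG3, at 0.831 (0.702 to 0.983). The siERRG3 calls of BCL11A, BCL11B and BICRAL were close to the threshold and all ended with FPKM, at log2 differences of 0.23, -0.23 and -0.25. None of the 21 other subunits was under 10 counts in every library.

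The order of levels can be read per transcript length only. In siCont the members ran from SMARCA4 at 119 FPKM through SMARCB1 (64.9), SMARCC1 (64.8), SMARCE1 (50.7), BRD7 (45.04), SMARCA2 (42.1), ARID1A (28.2), PBRM1 (17.2) and ARID2 (6.56) to ARID1B at 6.37 FPKM. The counting intervals of SMARCB1 and SMARCC1 overlapped, as did those of BRD7 and SMARCA2 and of ARID2 and ARID1B, so these neighbours are not ordered. The median of all tested genes was 8.02 FPKM. SMARCA4 was at percentile 95.5 of tested genes, PBRM1 at percentile 68.7, and ARID2 and ARID1B were below the median, at percentiles 45.8 and 45.1.

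PBRM1 kept the eighth place in all 3 libraries. ARID2 and ARID1B were below it, with overlapping intervals in siCont and siERRG2, and in siERRG3 ARID1B was the lower of the pair, at 3.88 FPKM. In siERRG2 SMARCE1, BRD7 and SMARCA2 lay close together, at 40.0, 39.8 and 39.4 FPKM, with overlapping intervals. In siERRG3 they were spread out, at 39.0 FPKM for SMARCE1, 45.7 for BRD7 and 28.1 for SMARCA2. PBRM1, at 9.19 FPKM in siERRG3, was still above ARID2 at 6.06 FPKM.

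H128 cells also carried the neuronal versions of several subunits. ACTL6B (BAF53B), which replaces ACTL6A when neural progenitors become neurons, was at 54.1 FPKM with siCont, 52.6 with siERRG2 and 48.03 with siERRG3. ACTL6A was at 39.9, 39.8 and 40.7 FPKM, and the fold of ACTL6B over ACTL6A was 1.35, 1.32 and 1.18. SS18L1 (CREST), the neuronal counterpart of SS18, was at 0.817, 0.940 and 0.863 of the FPKM of SS18. In the ACTL6 and SS18 pairs, neuronal and general forms were thus at like levels in all 3 libraries. None of these 4 genes was called against siCont. The DPF pair differed from them: DPF1 was below DPF2 in FPKM, as given above, and both were called higher in siERRG3.

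Each FPKM above rests on a transcript length per gene and library. The deposited values allow that length to be read back as the count divided by the FPKM and by the library size. This implied length was chosen as a measure after the values were seen. PBRM1 was at 8.01 kb with siCont, 7.96 with siERRG2 and 8.01 with siERRG3, so its count and its FPKM gave the same difference. For SMARCA2 the implied length was 4.88, 5.10 and 4.47 kb, and its siERRG3 level was 0.606 of siCont in counts and 0.667 in FPKM. For ARID1B it was 7.38, 7.29 and 8.23 kb, and its siERRG3 level was 0.673 in counts and 0.609 in FPKM. Counts were exactly whole as deposited in all 3 libraries for 6 of the 10 members, PBRM1 and ARID1A included. Those of SMARCA2, ARID1B, SMARCA4 and BRD7 were in part fractional, that is, reads were divided by the counting. SMARCA4 was among them though its implied length was 5.46 kb in every library. How the reads of these genes were divided among transcripts was not tested.

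Long transcripts were found among the members called lower in siERRG3 and also among those not called, namely ARID2, SMARCA4 and SMARCC1. Of 1611 genes with an implied length of at least 6 kb, which include PBRM1, ARID1A, ARID1B and ARID2, 38.1% were called lower in siERRG3 and 8.57% higher. Of 2357 genes of 4 to 6 kb, which include SMARCA4, SMARCA2 and SMARCC1, 707 were lower. Among 2784 genes shorter than 2 kb, where SMARCB1 falls, 14.5% were lower and 28.5% higher. The share that was lower thus grew with length in siERRG3, and much less in siERRG2, where it was 11.9% below 2 kb and 17.7% from 6 kb. These shares are of genes averaging 50 counts or more, and the part of length in the members' values was not tested.

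Within the group from 6 kb, 3.72% of the genes were as low as PBRM1 in siERRG3 or lower, 14.5% as low as ARID1B, 21.5% as low as ARID1A and 58.7% as low as ARID2. Within the group of 4 to 6 kb, 7.30% were as low as SMARCA2, 36.1% as low as SMARCA4 and 52.1% as low as SMARCC1. SMARCE1, of 2 to 3 kb, was matched or undercut by 12.6% of its group and BRD7 by 47.4%. For PBRM1 this place follows from the value it was chosen on.

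The genes around PBRM1 did not share its pattern. GNL3, which encodes nucleostemin, starts at 52685920 by RefSeq, 6 bases from the end of PBRM1 at its promoter, and is read in the opposite direction. It had 4539, 5489 and 5124 counts in the siCont, siERRG2 and siERRG3 libraries, with a log2 fold change of 0.15 in siERRG3 (ratio interval 1.07 to 1.16). By the table's extents, 12 genes lie within 50 kb of PBRM1. They include MUC4, which the table lists across most of chromosome 3, although RefSeq places it far from PBRM1, and which had at most 1 count in any library. Of the 12, 7 averaged 50 counts or more, and of these 0 were called lower in siERRG3 and 1 higher, SMIM4 with 378, 406 and 475 counts. Their siERRG3 ratios ran from 0.886 for NISCH to 1.24 for SMIM4. In siERRG2 GLT8D1 and NT5DC2 were called higher and NEK4 lower.

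**Figure D3:**
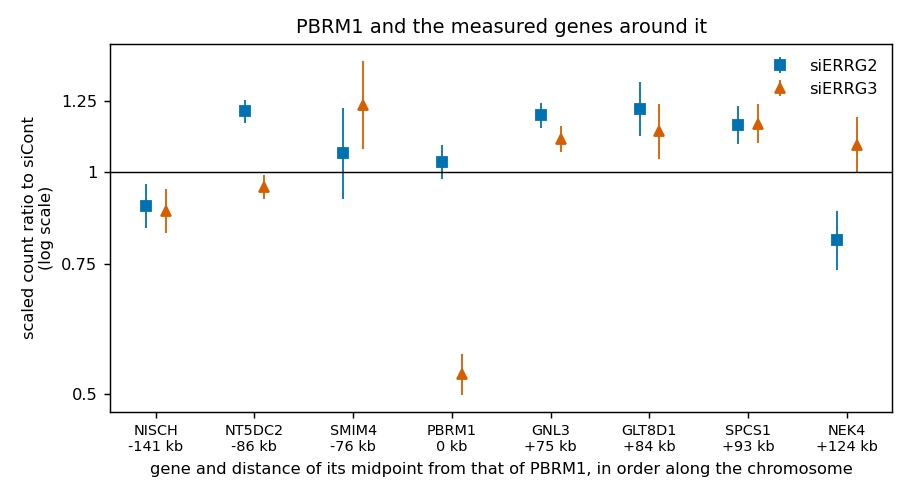
Scaled count ratio to siCont (log scale) of PBRM1 and the 7 measured genes around it in siERRG2 and siERRG3, in chromosome order with the distance of midpoints in kb; vertical lines are 95% intervals for counting error. PBRM1 in siERRG3 is at 0.531 and the other genes there lie between 0.886 and 1.24.

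The library kit kept strand, but whether the counting used it is not stated in the sources used here, so reads of overlapping genes may be mixed. By RefSeq positions 2 members overlap another gene in the table, SMARCB1 with DERL3 (8, 1 and 3 counts) and BRD7 with ADCY7 (80, 87 and 82 counts). Both partners had few counts beside the member. The table's own extents are wider and overlap another gene for 7 members. Among the genes that overlap a member other than PBRM1 in this way, SPC24 was called lower in siERRG3. It had 1742, 1843 and 1218 counts and a ratio of 0.688 (0.638 to 0.740). Its listed extent overlaps part of that of SMARCA4, although RefSeq places SPC24 83219 bases from SMARCA4.

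Genes elsewhere in the genome had a pattern close to that of PBRM1. Of the 7254 genes averaging 500 counts or more, 1264 were called lower in siERRG3 and not in siERRG2. The 5 nearest to PBRM1, by the distance between their pairs of log2 fold changes, were BUB1, RTN2, AVL9, HTRA2 and C12orf50. BUB1, a kinase of the mitotic spindle checkpoint, had 1957 counts with siCont, 2023 with siERRG2 and 1054 with siERRG3, at a distance of 0.017 on the log2 scale. AVL9 had 1320, 1395 and 722 counts, and HTRA2, a mitochondrial protease, 1252, 1281 and 678. RTN2 had 617, 636 and 333 counts and C12orf50 667, 710 and 354, at distances of 0.021 and 0.034. This likeness rests on 3 libraries.

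Other chromatin regulators give a comparison, from lists made by membership of other complexes. In siERRG3, 2 of 11 ISWI genes were called lower and 2 higher, with a median log2 fold change of -0.13. Of 20 CHD and NuRD genes, 4 were lower and 2 higher, with a median of -0.086. Of 21 INO80, SRCAP and EP400 genes, 1 was lower and 7 higher, with a median of 0.061. Of 22 Polycomb genes, 3 were lower and 6 higher, with a median of -0.028. Over all genes 25.1% were lower and 23.2% higher in siERRG3, and each list held genes on both sides of siCont.

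The gene furthest from siCont in siERRG3 in each list was named by rule. PCGF3, a RING finger protein of a variant Polycomb complex, had 700, 706 and 375 counts, which is close to the pattern of PBRM1, with log2 fold changes of -0.0042 and -0.92. CHD5, a neuronal CHD remodeler, had 1677, 1265 and 1124 counts and a ratio of 0.659 (0.611 to 0.711) in siERRG3, with siERRG2 low as well. CHRAC1, of ISWI, was higher with 830, 789 and 1082 counts, and YY1, which joins INO80, with 1789, 2037 and 2417 counts. Among these leading genes, PCGF3 was the only one called lower in siERRG3 and not in siERRG2.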

How the data were processed

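Total RNA of H128 cells was sequenced from 3 libraries, 1 each for siCont, siERRG2 and siERRG3. The authors deposited an estimated count per gene and library, not normalized and exactly whole for 54.0% to 54.9% of values, and an expression value whose unit the table does not name and which behaves as FPKM. The paper's methods name alignment to GRCh37/hg19 with BWA and Bowtie 2, whereas the submitters' processing notes name TopHat2, HTSeq, DESeq2, hg19, hg38 and GRCh38. The table's coordinates match GRCh38. The table's log2 ratios and p-values of the authors' own comparisons were not used.

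Estimated counts were rounded, 14031 genes that reached 10 counts in any library were kept, and libraries were scaled by TMM (edgeR 4.0.16, R 4.3.3). Fold changes are differences of log2 CPM (prior count 2), and the call threshold was 1.2-fold. Count ratios have 95% exact binomial intervals (SciPy 1.17.1). Libraries held 19861937 to 20016780 counts, and a gene such as DPF3, with 37, 37 and 15 counts, has a wide interval. The computation was tested on simulated data. Alternatives were CPM from total counts, size factors of DESeq2 1.42.0, FPKM with a pseudocount of 0.1, a smaller prior count (0.5), a filter on a mean of 50 counts or none, 1.5-fold, and 1.2-fold with an interval that excludes 1.

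Members and lists were chosen with earlier results of these data known. Genes named are the members, ESRRG, other subunits past 1.2-fold in either ESRRG siRNA library with an interval that excludes 1, the gene furthest from siCont in each remodeler list, genes overlapping a member or within 50 kb of PBRM1, and the 5 nearest to PBRM1 in pattern. Others were named after their values were seen. Of the neuroendocrine markers, 1 was not analysed here. RefSeq positions and promoter windows are of GRCh38.p14.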

Additional observations from a re-analysis of the deposited data

Results flagged for a closer look

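BCL11A, a zinc finger factor that associates with BAF, lay on opposite sides of siCont in the ESRRG siRNA libraries. On the log2 scale siERRG2 differed from siCont by -0.48 and siERRG3 by 0.27, from 484, 351 and 592 counts with siCont, siERRG2 and siERRG3. Each library is 1 sample, and the difference between them was not tested against replicate spread.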

How the results depend on the processing

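Of the counts of called genes recomputed under the alternatives, 85 were within 1.5 times the value reported and 11 were not, and 0 reversed. At 1.5-fold in place of 1.2-fold, the members called lower numbered 0 in siERRG2, 2 in siERRG3 (PBRM1 and SMARCA2) and 3 between siERRG3 and siERRG2. At 1.5-fold the other SWI/SNF subunits called numbered 0 in siERRG2, 1 in siERRG3 and 2 between the siRNAs, and the other remodeler and Polycomb genes 2, 6 and 5. The other SWI/SNF subunits called in siERRG3, 8 as reported, numbered 5 with FPKM (BCL11A, BCL11B and BICRAL lost their calls) and 5 with the filter on a mean of 50 counts (BCL11B and BICRAL lost theirs and DPF3 was removed). BCL11B and BICRAL also lost theirs with CPM from total counts, and BCL11A with no filter. Of the members' log2 fold changes, 117 moved by less than counting error and 3 by more, all with FPKM, namely ARID1B between siERRG3 and siERRG2 at -0.87, and SMARCA2 at -0.58 in siERRG3 and -0.49 between siERRG3 and siERRG2. The log2 fold change of PBRM1 in siERRG3 stayed between -0.91 and -0.89 in the alternatives of scaling, unit and prior count. A count per kilobase of a deposited transcript length was not run. With 1 library per condition no library could be left out within a group. No paired analysis was possible because each condition had 1 library.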
